A study of Homo sapiens with 2 samples.

Results

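The precursors hsa-mir-532, hsa-mir-188, hsa-mir-500a, hsa-mir-362, hsa-mir-501, hsa-mir-500b, hsa-mir-660 and hsa-mir-502, written below without the species prefix, form an X-linked microRNA (miRNA) cluster inside CLCN5, the gene of a chloride and proton exchanger of kidney tubule cells that is mutated in Dent disease. They were taken by name from the tables of counts per precursor hairpin, where all 8 were found among 1038 precursors with a count. In a genome-wide list of read stacks (stretches of overlapping reads), 12 of 1744 stacks that name a precursor on their own strand name 1 of these 8. Small RNA had been recovered by FLAG pull-down from the human embryonic kidney line HEK293 T-Rex, with FLAG-tagged AGO2 in one group and FLAG-tagged AGO3 in the other. With 1 library a group, differences are given without a test or a p-value and lack any check over replicates. Each library carries its own 3′ adapter, so adapter and protein cannot be told apart, and the level of the tagged proteins beside the cells' own Argonautes was not analysed here.

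A miRNA hairpin is cut out of a longer transcript by Drosha and then by Dicer into a short duplex, and 1 strand of the duplex stays in an Argonaute protein as a guide. The guide finds target messenger RNAs mainly through its seed, which is bases 2 to 8 from its 5′ end. Hairpins of a cluster are usually cut from a common transcript, and each then gives its own guides, from the 5′ arm, the 3′ arm or both. AGO2 is the human Argonaute best known for slicing targets, and AGO3 binds largely the same miRNAs.

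The mature sequences are shown because most of their seeds differ, while some members share long stretches that can run through the seed at a shifted position. They are from RefSeq on build GRCh38.p14, where all 8 precursors were matched by symbol. In all, 15 mature sequences were used, which are both arms of 7 precursors and miR-660-3p. The reference used held no mature miR-660-5p, so the seed of that arm was not compared. The letters in capitals are the seed. The 5′ arms of mir-362, mir-500a, mir-500b, mir-501 and mir-502 read alike, with UCCUU held in the seed at different offsets:
miR-532-5p: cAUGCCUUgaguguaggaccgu
miR-188-5p: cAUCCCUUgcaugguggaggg
miR-362-5p: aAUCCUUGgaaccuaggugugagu
miR-500a-5p: uAAUCCUUgcuaccugggugaga
miR-500b-5p: aAUCCUUGcuaccugggu
miR-501-5p: aAUCCUUUgucccugggugaga
miR-502-5p: aUCCUUGCuaucugggugcua

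The 3′ arms shown next are those whose seed is shared or shifted by a base between members, and miR-362-3p, whose seed is shared outside the cluster:
miR-501-3p: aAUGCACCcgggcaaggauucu
miR-502-3p: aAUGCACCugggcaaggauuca
miR-500a-3p: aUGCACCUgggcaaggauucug
miR-532-3p: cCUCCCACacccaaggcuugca
miR-188-3p: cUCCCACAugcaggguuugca
miR-362-3p: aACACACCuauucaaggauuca

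The 15 mature sequences held 13 distinct seeds. miR-501-3p and miR-502-3p shared the seed AUGCACC, and miR-362-5p and miR-500b-5p shared the seed AUCCUUG. miR-500a-3p and miR-502-3p had a run of 20 identical bases, yet miR-500a-3p starts a base later and its seed is therefore another one. Outside the cluster, the seed of miR-362-3p was also that of miR-329-3p, whose precursors mir-329-1 and mir-329-2 had 5 counts each in AGO2 and 3 and 2 in AGO3. The seed of miR-188-5p was also that of miR-6866-3p. No other mature miRNA of the RefSeq table had a seed of these 15 sequences.

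Near copies matter for the counts, because the tables do not say how reads that match several hairpins were placed. Hairpin sequences of 7 members, all except mir-501, were compared. The longest run shared by a pair of these was that of mir-500a and mir-500b, whose hairpins of 84 and 79 bases share a run of 37 bases, shown in capitals, that contains the whole of the 5′ arm miRNA:
mir-500a: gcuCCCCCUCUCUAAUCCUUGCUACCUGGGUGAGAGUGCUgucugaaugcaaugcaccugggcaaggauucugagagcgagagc
mir-500b: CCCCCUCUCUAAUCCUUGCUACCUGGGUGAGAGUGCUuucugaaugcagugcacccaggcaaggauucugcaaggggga

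The hairpins of mir-500a and mir-502 were also close, with 88.4% identical positions in a global alignment and a longest shared run of 26 bases, which lies over the 3′ arm. Values of mir-500a, mir-500b and, on the 3′ arm, mir-502 are therefore uncertain as their own, and mir-501 was not compared in this way.

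The AGO2 library had 3485257 reads counted on precursors and the AGO3 library 3055417, which are 52.2% and 65.5% of their reads. In all, 411 precursors had at least 100 counts over both libraries, and their median log2 ratio of AGO3 over AGO2 was 0.08 with an SD of 1.02. The miRNAs fixed as HEK293 markers (HOX-cluster and miR-17~92 type precursors) held 27.0% of AGO2 and 23.5% of AGO3 counts. Liver mir-122 had 1 and 2 counts, the muscle list 60 and 109, the blood list 232 and 196 and the epithelial list 46 and 70, while mir-206, mir-223 and mir-200a had no count in either library. The neuronal list held 0.274% and 0.303% of the counts and the mesenchymal list 0.038% and 0.058%. The part of such cells or transcripts in the results below was not tested.

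As a whole the cluster was a small part of what each protein held, and a larger part of AGO3 than of AGO2. Its 8 precursors summed to 12242 counts in AGO2, or 0.351% (exact Clopper-Pearson 95% interval 0.345 to 0.358). In AGO3 they summed to 18715 counts, or 0.613% (0.604 to 0.621), a log2 ratio of 0.80 (0.77 to 0.84). All intervals here cover counting error only, because each group has 1 library. How the random bases of the adapter were used is not stated. Where reads are copies of a molecule, the intervals are too narrow. The sum was carried by mir-188: without it the log2 ratio was 0.29, and without mir-188 and mir-532 together it was −0.80. A pull-down from a whole culture cannot tell fewer cells with a miRNA from less of it per cell.

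**Figure D1:**
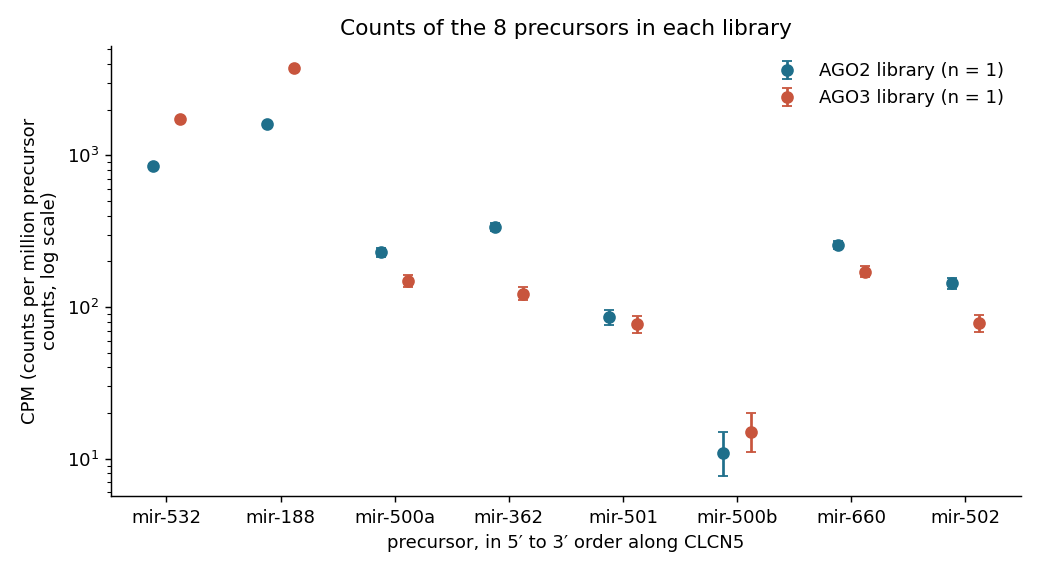
CPM, counts per 1000000 precursor counts (log axis), of each of the 8 precursors in the AGO2 and the AGO3 library, in their order along CLCN5. Points are single libraries and bars are exact 95% counting intervals. mir-532 and mir-188 lie above all other members in both libraries and are higher in AGO3, whereas mir-500a, mir-362, mir-660 and mir-502 are lower in AGO3.

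The members did not move together. The 2 upstream hairpins, mir-532 and mir-188, were higher in AGO3, and the 5 others with enough counts to compare were lower or indistinguishable from equal shares. mir-188 had 5571 counts in AGO2 and 11577 in AGO3, or 1598 and 3789 CPM (counts per 1000000 precursor counts of the library), and a log2 ratio of 1.25 (1.20 to 1.29). It was the most abundant member in both libraries and ranked 96 among all precursors in AGO2 and 56 in AGO3.

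mir-532 had 2969 and 5268 counts, or 852 and 1724 CPM, with the ratio at 1.02 (0.95 to 1.08) on the log2 scale. Its interval reached below a 2-fold difference, while that of mir-188 lay wholly beyond it. The stacks of mir-532 and mir-188 are separated by 283 bases, and 4899 bases lie between the stacks of mir-188 and mir-500a.

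mir-362 was the lowest of the cluster relative to AGO2, opposite in direction to mir-532 and mir-188 but not to mir-500a, the member next upstream. Its counts were 1170 in AGO2 and 375 in AGO3, or 336 and 123 CPM, which puts the log2 ratio at −1.45 (−1.62 to −1.28). Its place by abundance in the cluster was 3 in AGO2 and 5 in AGO3.

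The other members were less than 2-fold apart. mir-502 had 499 and 238 counts, or 143 and 77.9 CPM, and its log2 ratio was −0.88 (−1.11 to −0.65). mir-500a had 801 and 452 counts, or 230 and 148 CPM, and its log2 ratio was −0.64 (−0.81 to −0.47). These are the members with the near-identical 3′ arm sequence shown above.

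mir-660 had 895 and 523 counts, or 257 and 171 CPM, and its log2 ratio was −0.58 (−0.74 to −0.43). For mir-501, with 299 and 236 counts or 85.8 and 77.2 CPM, the log2 ratio of −0.15 (−0.40 to 0.10) was within counting error. With the library's reads in all as the scale, its sign turned, to 0.17. mir-500b, with 38 and 46 counts, was under the minimum of 100 counts, and its log2 ratio of 0.46 (−0.19 to 1.12) was also within counting error. Summed with its near copy mir-500a, the pair had 839 and 498 counts and stood at −0.56 (−0.73 to −0.40).

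**Figure D2:**
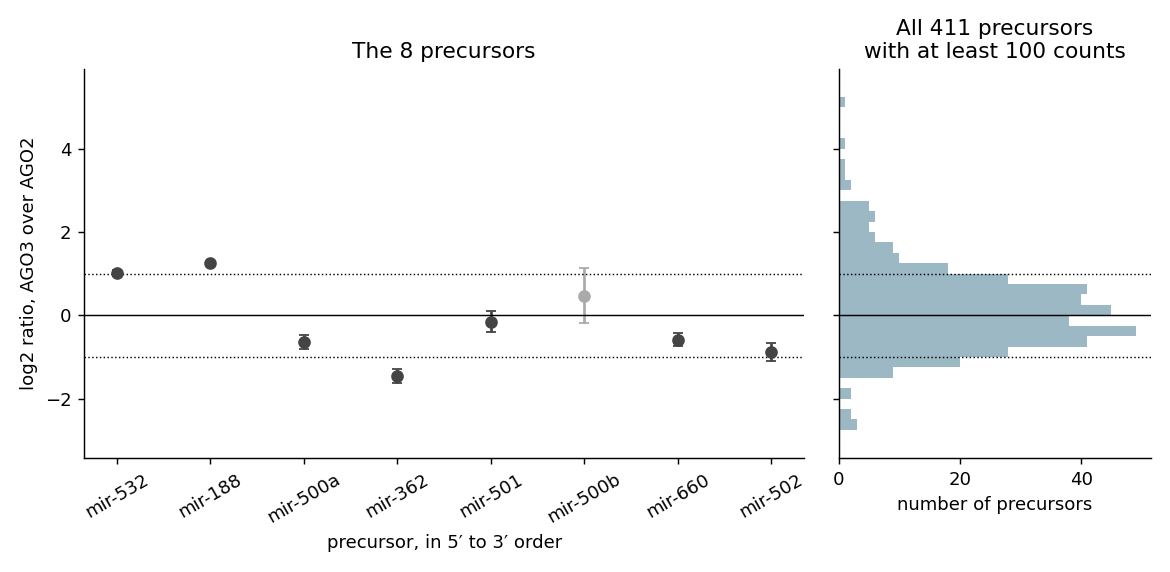
Left, log2 ratio of AGO3 over AGO2 for each of the 8 precursors in 5′ to 3′ order, with exact 95% counting intervals (grey: mir-500b, under 100 counts); right, the number of precursors at each ratio among the 411 with at least 100 counts. Dotted lines mark 2-fold. mir-188 and mir-532 lie above the upper line, and mir-362 at −1.45 lies below the lower one.

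Of the 7 members with at least 100 counts, 3 were at least 2-fold apart, against 24.6% of all precursors with that many counts. The 2 higher ones, mir-188 and mir-532, stand beside 15.8% of all precursors at least 2-fold higher in AGO3, and the 1 lower one, mir-362, beside 8.76% at least 2-fold lower. Over all precursors the split was 65 higher and 36 lower, and it was 56 and 52 with TMM, 56 and 55 with median-of-ratios scaling and 107 and 16 with all reads of the library as the scale. A ratio below 0 was found in 5 of the 7, against 46.7% of all precursors. With TMM and median-of-ratios scaling it was also 5, against 53.8% and 55.5%, and with all reads as the scale 4, against 33.3%. The median log2 ratio of the 7 was −0.58, opposite in sign to the ratio of the summed counts. The median of all precursors was 0.08, and it was −0.08 with TMM and −0.11 with median-of-ratios scaling, where the members' median was −0.75 and −0.77. With 7 members, the count says little on its own. Under TMM and median-of-ratios scaling the number stayed at 3 with other members: mir-532 came to 0.86 and 0.83, inside 2-fold, and mir-502 to −1.04 and −1.07, outside it.

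Because of these unequal ratios the make-up of the cluster differed between the libraries. mir-188 made up 45.5% (44.6 to 46.4) of the cluster's counts in AGO2 and 61.9% (61.2 to 62.6) in AGO3. mir-532 made up 24.3% and 28.1%, so that both together went from 69.8% (68.9 to 70.6) to 90.0% (89.6 to 90.4). The share of mir-362 was 9.56% (9.04 to 10.1) in AGO2 and 2.0% (1.81 to 2.21) in AGO3. These shares do not depend on how the libraries are scaled to each other.

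In the order of counts, mir-188 and mir-532 led and mir-501 and mir-500b closed in both libraries. In AGO2 mir-362, mir-660, mir-500a and mir-502 followed mir-532, and the counting intervals of mir-660 and mir-500a overlapped. In AGO3 the order after mir-532 was mir-660, mir-500a, mir-362 and mir-502. There the intervals of mir-660 and mir-500a, of mir-500a and mir-362, and of mir-502 and mir-501 overlapped, so these neighbours were not separated at this depth.

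**Figure D3:**
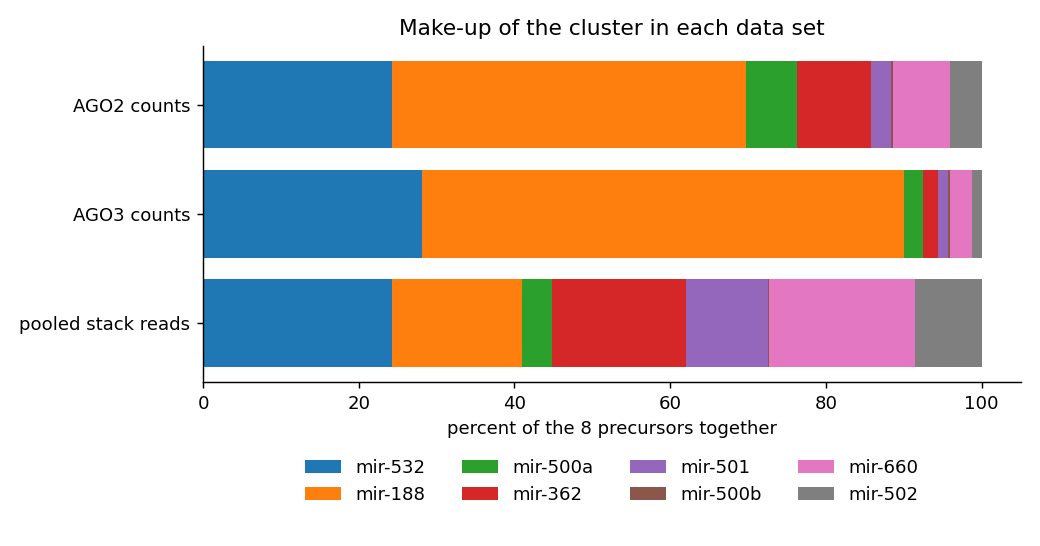
Share of each precursor in the summed counts of the 8 precursors, for the AGO2 library, the AGO3 library and the pooled read stacks. mir-532 and mir-188 together take 69.8% of the AGO2 bar, 90.0% of the AGO3 bar and 40.9% of the bar of pooled stack reads.

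Another 3 X-linked miRNA clusters were set beside this one to show how far their hairpins stand apart in these libraries. In the miR-106a cluster, a paralogue of the growth-promoting miR-17~92 cluster, the 6 precursors ranged from −1.49 (mir-19b-2) to 1.28 (mir-363), and the summed counts were at −0.06. That spread of 2.77 on the log2 scale is close to the 2.70 between mir-362 and mir-188. It depends on mir-19b-2, since the next lowest precursor of the miR-106a cluster, mir-92a-2, was at −0.03. In the miR-424 cluster the 6 precursors lay between −0.54 and 0.29, a spread of 0.83, and none was at least 2-fold apart. In the cluster of the noncoding gene FTX the 5 precursors lay between −1.03 (mir-374a) and 0.42 (mir-545), a spread of 1.45. Some of these have near copies that may share reads, such as mir-19b-2, with a copy on another chromosome, and mir-450a-1 and mir-450a-2, which are copies within their cluster, and whether the spreads differ was not tested.

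The pooled read stacks place the members in the genome and, for some hairpins, separate the arms. In build hg19 the 12 stacks lie on the plus strand between chrX:49767748 and chrX:49779280, a span of 11533 bases. All lie in intron 3 of the long CLCN5 transcripts, per the annotation in the list. They held 266338 reads, 0.503% (0.501 to 0.505) of the 52912652 stack reads over miRNA precursors. The stacks pool libraries: the whole list holds 68649476 reads, more than the 6674064 and 4667236 reads of the AGO2 and AGO3 libraries could give if each read was counted once, and the list does not say which libraries went into it.

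Outside the hairpins the host gene was nearly empty. On the CLCN5 strand, 15 further stacks held 49 reads in all, and the largest were a pair with 24 and 12 reads over exon 1. Between the first and the last stack of the cluster there was 1 other stack, with 1 read. No stack named a member as antisense.

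In 4 hairpins the reads formed an upstream and a downstream stack, which on the plus strand are the 5′ and the 3′ arm. mir-532 had 45882 reads at chrX:49767748-49767796 and 18821 at chrX:49767807-49767836, so 70.9% (70.6 to 71.3) came from the 5′ arm. mir-362 had 24586 reads at chrX:49773575-49773602 and 21465 at chrX:49773611-49773655, with 53.4% (52.9 to 53.8) from the 5′ arm. Of these, mir-362 was the more even, with both arms well represented.

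mir-501 had 17710 reads at chrX:49774341-49774371 and 10340 at chrX:49774374-49774403, with 63.1% (62.6 to 63.7) from the 5′ arm. mir-502 was the opposite, with 5685 reads at chrX:49779219-49779246 and 16976 at chrX:49779252-49779280, so that 74.9% (74.3 to 75.5) came from the 3′ arm. As the reads were placed in the list, the arms with the shared seed AUGCACC were the minor arm of mir-501 and the major arm of mir-502. These arms are close in sequence to each other and to miR-500a-3p, and whether reads were exchanged among them was not tested. Stacks of mir-362, mir-501 and mir-502 start 36, 33 and 33 bases apart, near the 37, 37 and 36 bases between the starts of their 5p and 3p miRNAs in RefSeq. In mir-532 the starts were 59 bases apart against 37, since its upstream stack of 49 bases reaches further 5′.

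**Figure D4:**
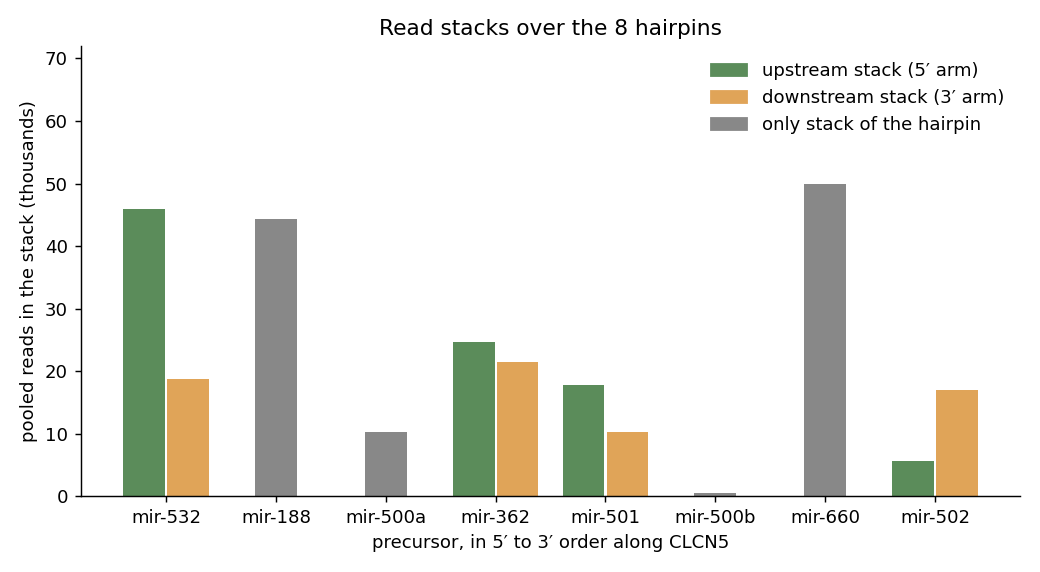
Pooled reads (axis in units of 1000) in each of the 12 read stacks over the 8 hairpins, in their order along CLCN5. Green bars are upstream and yellow bars downstream stacks of hairpins with 2 stacks, and grey bars are the only stack of a hairpin. The upstream stack is the larger one in mir-532, mir-362 and mir-501, and the downstream stack in mir-502.

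The minor arm thus took 29.1% of the stack reads of mir-532, 46.6% of mir-362, 36.9% of mir-501 and 25.1% of mir-502. Among 378 hairpins with exactly 2 stacks of at least 10 reads, the median share of the minor arm was 24.97%, with quartiles of 9.58% and 37.5%, and the upstream stack was the larger in 43.7%. Because the counts per precursor cover both arms, the arms could not be compared between AGO2 and AGO3.

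The other 4 hairpins had a single stack. That of mir-660, at chrX:49777861-49777922, held 49899 reads over 62 bases. The stack of mir-188 at chrX:49768120-49768183 held 44257 reads over 64 bases, longer than the 60 bases from the start of miR-188-5p to the end of miR-188-3p, so it is long enough to hold both arms. The stack of mir-500a (chrX:49773083-49773133) held 10265 reads over 51 bases and that of mir-500b (chrX:49775321-49775352) held 452 reads over 32 bases. Both are shorter than the 61 and 60 bases that span both arms of these hairpins in RefSeq. All 12 stacks carry a label of unique mapping in the list, and the 5′ arm sequence is common to this pair, but which arm their stacks cover was not determined, because RefSeq positions are on another build.

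Differences from the reference in the members' stacks ranged from 0.134 edits per read in mir-188 to 0.168 in the upstream stack of mir-501, with a median of 0.162. Over 1264 stacks of at least 10 reads that each name 1 precursor, the median was 0.144.

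The pooled stacks ranked the members otherwise than the counts per precursor did. mir-532 came first with 64703 reads, then mir-660 with 49899, mir-362 with 46051 and mir-188 with 44257, followed by mir-501 with 28050, mir-502 with 22661, mir-500a with 10265 and mir-500b with 452. By the larger stack of each hairpin alone, an alternative chosen after seeing the data, the order began with mir-660, mir-532, mir-188 and mir-362. The places of the other members stayed the same. mir-188 was 16.6% of the cluster's stack reads, below its 45.5% and 61.9% of the cluster in the AGO2 and AGO3 counts. mir-660 was 18.7% of the stack reads against 7.31% and 2.79% of the counts. The pooled share lay outside the range between both libraries in 6 of the 8 members: above both in mir-362, mir-501, mir-660 and mir-502, and below both in mir-188 and mir-500b. It lay within that range in mir-532 and mir-500a. The stacks of mir-500a and mir-500b are shorter than the span of both arms. Their stack reads may therefore leave out an arm that the counts include. The place of mir-500b is also uncertain, because it rests on 38 and 46 counts. Its share was 0.170% of the stack reads against 0.310% (0.220 to 0.426) of the AGO2 and 0.246% (0.180 to 0.328) of the AGO3 counts.

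Set against the counts of both libraries, mir-188 had 2.58 stack reads per count, mir-532 7.86 and mir-500a 8.19. For mir-500a, the stack may cover only a part of the hairpin, while the counts cover both arms. mir-362 had 29.8, mir-502 30.7, mir-660 35.2 and mir-501 52.4. Over 326 precursors with at least 100 counts and a stack of their own, the median was 6.32, with quartiles of 2.17 and 16.4 and a 95th percentile of 50.7. mir-362, mir-502, mir-660 and mir-501 were above the upper quartile, and mir-188, mir-532 and mir-500a lay between the quartiles.

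**Figure D5:**
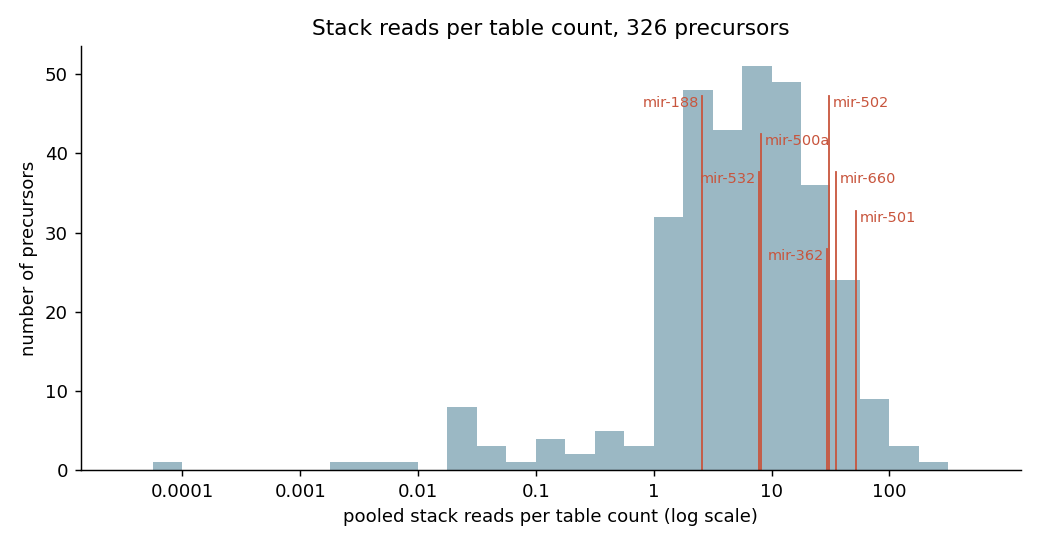
Number of precursors by pooled stack reads per table count (log axis), over the 326 precursors with at least 100 counts and a stack that names them alone. Vertical lines mark the 7 members among them, from mir-188 at 2.58 to mir-501 at 52.4. Their heights only separate the labels.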

How the data were processed

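Small RNA from 1 AGO2 and 1 AGO3 pull-down was measured, and groups follow the sample titles. The authors deposited raw counts per miRNA precursor, both arms together, with the library's reads in all, mapped and unmapped per the file headers. The deposited stack list gives the count of reads, position, annotation and edits of each stack of pooled reads. The deposited stack annotations are text fields (other values), of which edits are whole counts. The submitters' processing notes name hg19 and Bowtie2 2.1.0 but not what each was used for. How strand, the random bases and reads that match several hairpins were treated: not given in the sources used here.

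Log2 ratios of AGO3 over AGO2 compare the shares of the libraries' precursor counts after adding 0.5 (scaled by library) as a pseudocount, with exact Clopper-Pearson 95% intervals. A count of 0 allows 3 counts, or 8.61e-05% of AGO2 and 9.82e-05% of AGO3 counts. Precursors with at least 100 counts were compared, and 2-fold stood in for a call. The members, lists and rules were chosen with earlier results of these data known. Every member is named, with the range of 3 other X-linked clusters, precursors sharing a seed and the 3 nearest precursors in abundance. The reference held names and sequences on GRCh38.p14 only, so no stack was matched to it by position. Alternatives were other scalings (edgeR 4.0.16 for TMM), count minimums, pseudocounts, summed copies, left-out members and the larger stack alone. The computation was tested on simulated counts that had counting error only and large built-in changes. That checks the arithmetic, and not the spread between libraries or the placing of reads of near copies. Scripts ran on R 4.3.3 and Python 3.11.15 with scipy 1.17.1, pandas 2.3.3, numpy 2.4.6 and matplotlib 3.10.9.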

Additional observations from a re-analysis of the deposited data

How the results depend on the processing

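The log2 ratio of the summed counts was 0.80. It was 0.64 with TMM, 0.61 with median-of-ratios scaling and 1.13 with all reads of the library as the scale, which shift the median of all precursors by −0.16, −0.19 and 0.33. Leaving out 1 member gave 0.73 without mir-532, 0.29 without mir-188, 0.86 without mir-500a, 0.92 without mir-362, 0.87 without mir-660 and 0.84 without mir-502. Leaving out mir-188 and mir-532 together, an alternative chosen after seeing the data, gave −0.80. As a share of all reads the cluster held 0.183% of AGO2 and 0.401% of AGO3. The number of all precursors at least 2-fold apart went from 101 to 184 with a minimum of 20 counts, 54 with a minimum of 1000 and 436 with none, where fewer or more precursors are counted. The number of members at least 2-fold apart was 3 under every alternative run, with the exchange of mir-532 and mir-502 given above. Among single members, a sign changed in 2 cases, both in members within counting error: mir-501 with all reads as the scale, and mir-500b when summed with mir-500a, which gave −0.56.

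The matching of stacks by overlap with hairpin coordinates was not run, because the reference is on another build. No paired analysis was possible because each group has 1 library. One library per protein, a 3′ adapter that differs with the protein and reads of near copies limit every value, and mir-500b with 84 counts in all is too thin for a ratio.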

Other observations

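Of the other precursors with at least 100 counts, those nearest to the cluster's summed counts over these 2 libraries were mir-744, mir-345 and mir-455, at distances of 0.03, 0.09 and 0.10 in log2 CPM. Their counts were 12190 in AGO2 and 18284 in AGO3 for mir-744, 12962 and 18215 for mir-345, and 11678 and 17773 for mir-455, with log2 ratios of 0.77, 0.68 and 0.80. With 2 libraries, likeness here means only a similar level in each of them.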
